A study of Mus musculus with 4 samples.

Results

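The Ser2P ratio of immediate early and inducible regulator genes was compared between Carm1 KO and control B16F10 cells, a mouse melanoma line. The ratio comes from mammalian native elongating transcript sequencing, which reads the short RNA held by RNA polymerase II (Pol II) on nuclease-digested chromatin, and it sets the signal of polymerase phosphorylated at serine 2 of its C-terminal domain (Ser2P) against another signal. That divisor is not named in the sources used here, so a higher ratio may lie in more Ser2P signal or in a smaller divisor. The genes were picked by symbol alone, from the FOS, JUN, EGR, IER, NR4A, KLF, DUSP, ZFP36, ATF, CEBP, small MAF, BHLHE40, SERTAD, RGS, TOB, SPRY, ID, CSRNP, NFKBI, TRIB, SOCS, PER, CRY and PIM families and the symbols MYC, SRF, SGK1, CYR61, CTGF and ARC. The rule found 55 genes among the 3117 in the deposited tables. All 55 were listed at the transcription start site (TSS) and 53 at the transcription end site (TES), where Atf4 and Cyr61 were not analysed.

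The Carm1 KO group is B16F10 cells lacking the arginine methyltransferase Carm1, and the control group is the parental, wild-type line. Both were grown in serum-containing medium, and the labels name no acute stimulus. Ser2P and Pol II libraries were made from each, 4 in all, and 3 sets of cells per condition were pooled before each was made. How the KO cells were derived is not given in the sources used here. With 1 library per group no spread between replicates exists, so no test was run, and each value describes these libraries only. Read depth was unknown. Carm1 itself was not analysed here, so its loss could not be checked. Of 8 melanocyte markers, 6 were listed at the TSS (Mc1r, Sox10, Pmel, Mlana, Tyr and Tyrp1) and 4 at the TES, but a ratio is not an expression level and does not measure how strongly they were transcribed.

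Immediate early genes are switched on within minutes of a growth factor or stress signal without new protein synthesis. Their polymerases often wait just past the start, and release into the gene body is accompanied by serine 2 phosphorylation, which usually builds up toward the gene end. Many encode transcription factors that pass the signal on, and others (DUSP, SPRY, SOCS, ZFP36) switch it off again. In melanoma cells the MAP kinase pathway that drives many of them is commonly active.

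At the TSS these genes had a median ratio of 0.109 in Carm1 KO cells and 0.0578 in control cells, against medians over all listed genes of 0.166 in Carm1 KO cells and 0.0809 in control cells. Of the 53 members with a ratio above 0 in both, 32 (60.4%) were higher in Carm1 KO cells by at least 1.5-fold (0.58 on the log2 scale) and 6 (11.3%) were lower, while 15 lay in between. Over all 2859 genes compared, 71.2% were higher and 5.6% were lower. The median log2 change, Carm1 KO over control, was 0.87 for the members and 1.17 for all genes. The members thus moved the same way as most genes, and their median lay 0.30 below.

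At the TES the median ratio was 2.05 in Carm1 KO cells and 1.02 in control cells, against 2.99 in Carm1 KO and 1.71 in control cells over all listed genes. Of 53 members, 38 (71.7%) were higher by at least 1.5-fold, 3 (5.66%) were lower and 12 lay in between, and over all 3016 genes 66.7% were higher and 7.13% lower. Their median log2 change of 0.84 was close to the 0.85 of all genes. The members therefore did not stand apart in size of change at the TES, but 39 of 53 had control ratios under the median of all genes. The scale between the libraries is not given. Once the median of all genes was subtracted, 11 members were higher and 21 lower at the TSS, where 28.6% of all genes were higher and 28.8% lower. At the TES 6 members were then higher and 8 lower, where 11.6% of all genes were higher and 22% lower.

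**Figure D1:**
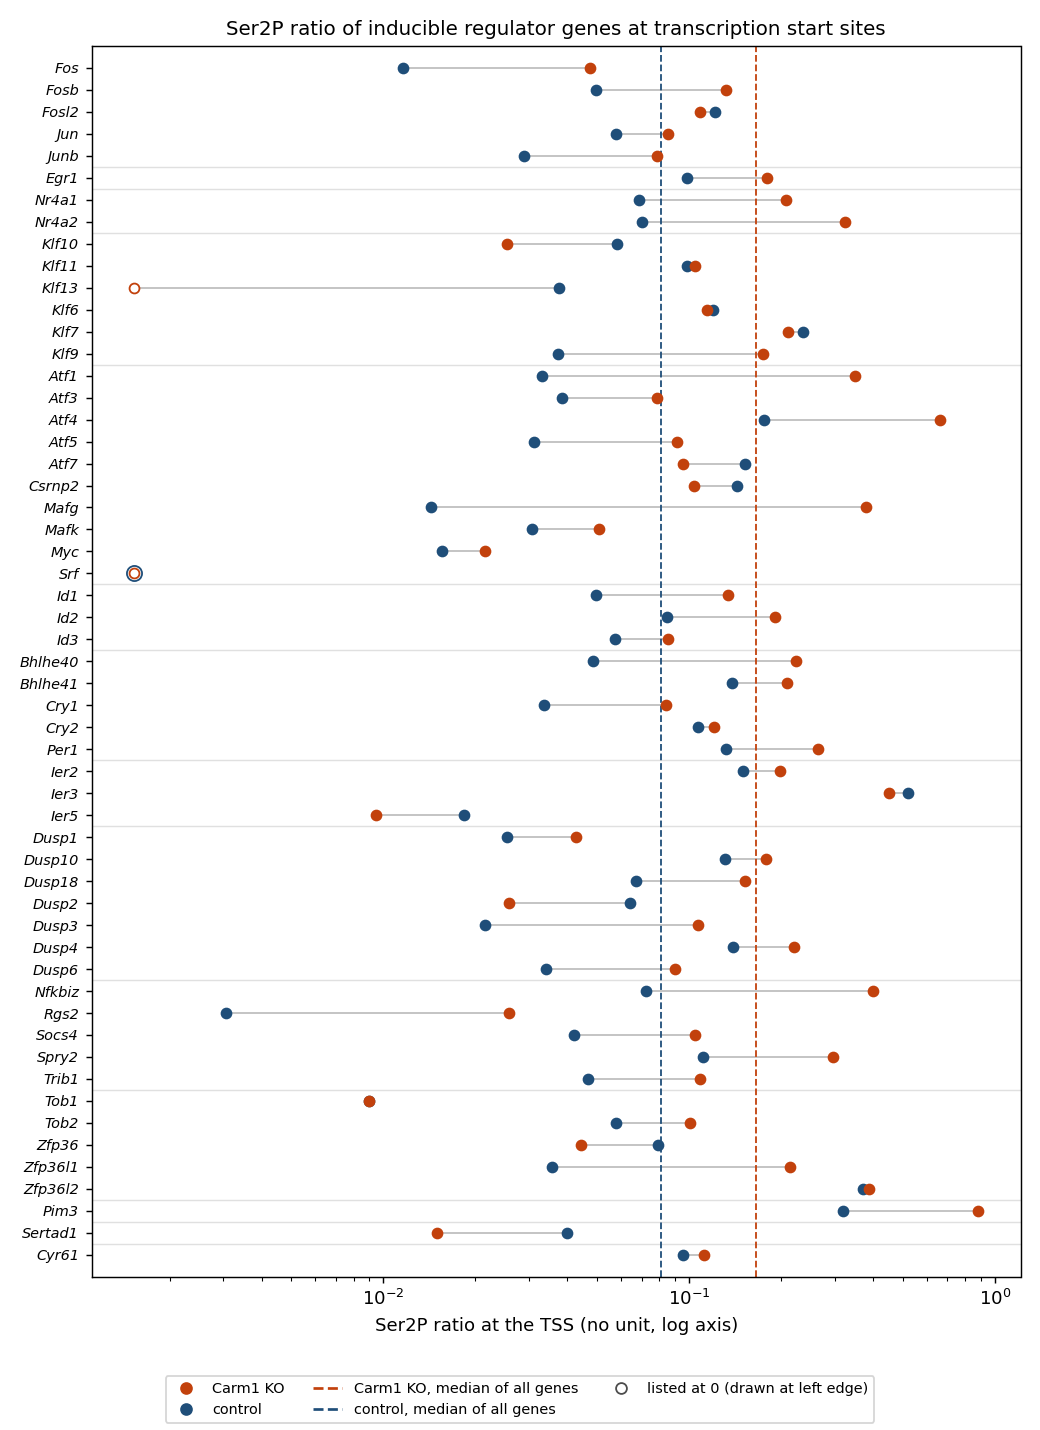
Ser2P ratio at the TSS (log axis, no unit) of each of the 55 genes, grouped by role, in Carm1 KO cells (orange) and control cells (blue); each point is 1 library, dashed lines are the medians of all listed genes, and open points at the left edge are values listed at 0. Most orange points lie right of the blue ones, with Mafg, Atf1 and Rgs2 farthest apart. Of the 53 genes above 0 in both, 11 run the other way, among them Sertad1, Dusp2, Klf10, Ier5, Zfp36 and Atf7 by at least 1.5-fold.

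**Figure D2:**
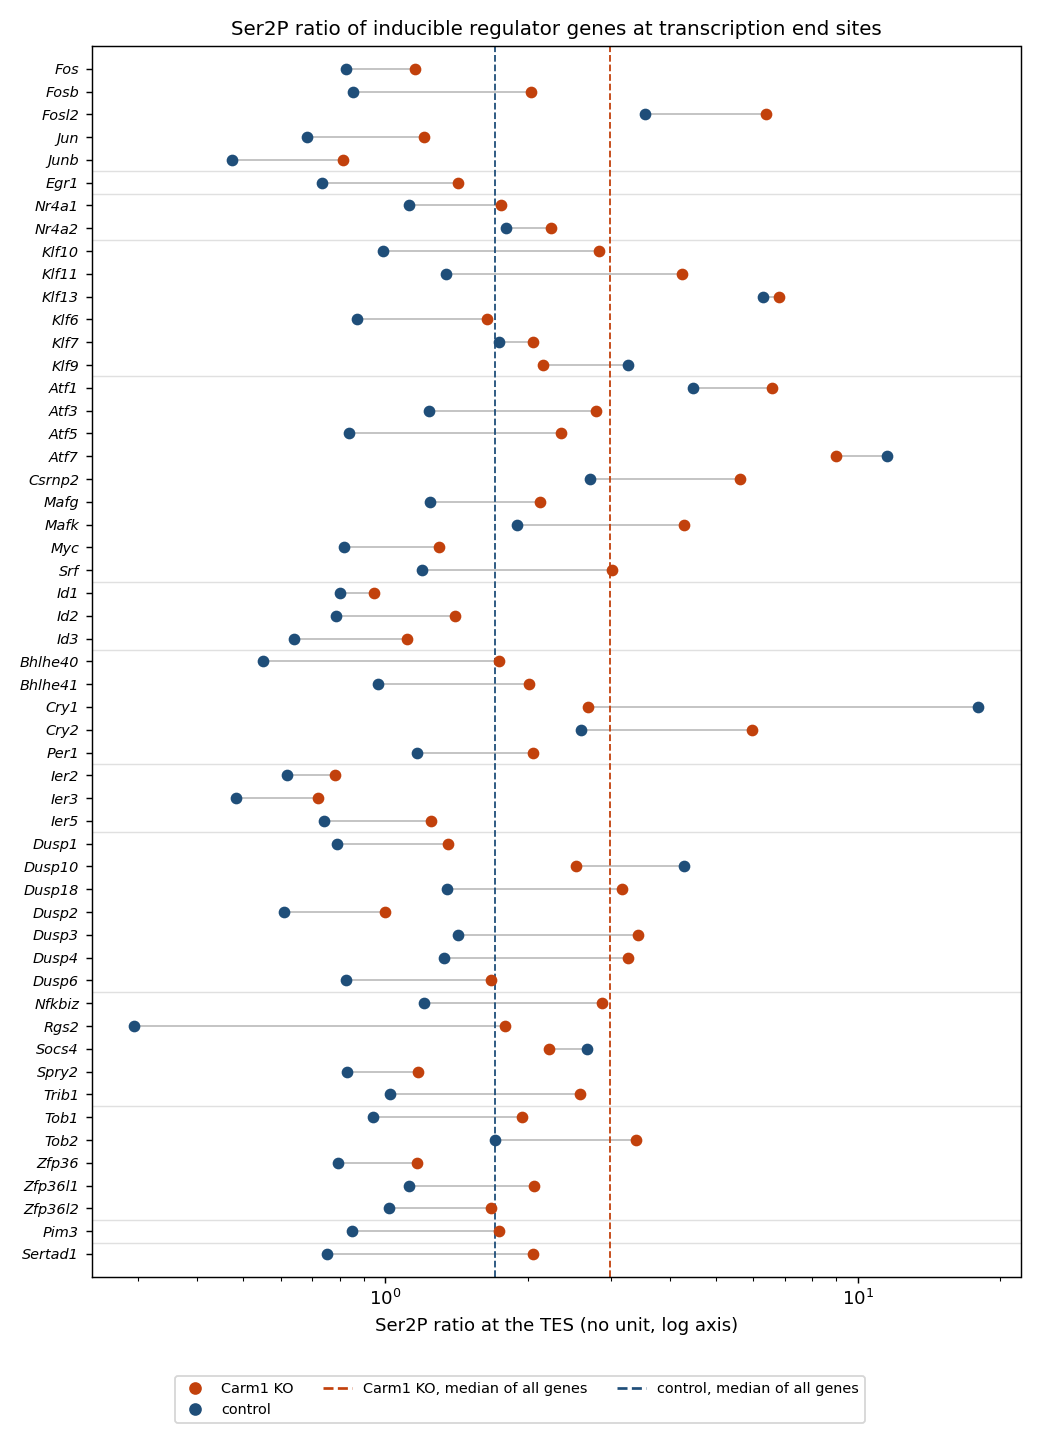
Ser2P ratio at the TES (log axis, no unit) of the 53 genes listed there, drawn as for the TSS. Orange points lie right of blue ones for 48 of 53 genes, and Cry1 shows the widest gap in the opposite direction, at 2.68 in Carm1 KO cells and 18.0 in control cells.

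Because the TSS ratio is read where these genes are switched on, the start windows of several members are shown. They are RefSeq sequences on GRCm38.p6, from 250 bases before to 50 after the start of the transcript given in the table, and 44 of 55 members had an entry. For Srf and Mafg that start lies 2.10 and 1.41 kb inside the RefSeq gene body, whose outer start was used for lengths and neighbours, and for the other 5 genes shown both starts are the same. Fos and Zfp36l1 carry a TATA box in its usual place, Srf and Zfp36 the CArG box bound by serum response factor, Dusp1 a cyclic AMP response element and Zfp36l1 an AP-1 site. Sertad1 and Mafg had the lowest and highest TSS change of all members, and their windows hold no full match to these motifs. Capitals mark the motif matches on either strand.
Fos, chr12:85473640-85473939, plus strand: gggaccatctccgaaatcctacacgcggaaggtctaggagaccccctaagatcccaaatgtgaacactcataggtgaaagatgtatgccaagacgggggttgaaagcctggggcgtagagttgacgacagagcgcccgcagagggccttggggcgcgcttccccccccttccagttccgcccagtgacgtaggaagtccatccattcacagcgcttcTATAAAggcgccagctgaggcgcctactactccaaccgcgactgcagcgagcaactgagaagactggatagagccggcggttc
Srf, chr17:46556113-46556412, minus strand: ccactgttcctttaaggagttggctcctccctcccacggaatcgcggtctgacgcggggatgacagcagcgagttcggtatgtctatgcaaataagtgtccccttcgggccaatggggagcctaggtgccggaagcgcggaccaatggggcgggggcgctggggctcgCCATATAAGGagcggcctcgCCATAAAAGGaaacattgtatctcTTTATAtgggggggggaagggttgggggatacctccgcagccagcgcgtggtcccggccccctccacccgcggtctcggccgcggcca
Zfp36, chr7:28379179-28379478, minus strand: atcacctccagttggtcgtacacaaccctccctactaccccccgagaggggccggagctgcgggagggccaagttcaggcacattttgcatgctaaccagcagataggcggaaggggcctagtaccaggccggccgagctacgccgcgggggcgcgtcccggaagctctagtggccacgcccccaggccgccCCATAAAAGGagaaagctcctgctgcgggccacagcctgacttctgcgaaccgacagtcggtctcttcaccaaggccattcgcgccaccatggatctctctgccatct
Zfp36l1, chr12:80112964-80113263, minus strand: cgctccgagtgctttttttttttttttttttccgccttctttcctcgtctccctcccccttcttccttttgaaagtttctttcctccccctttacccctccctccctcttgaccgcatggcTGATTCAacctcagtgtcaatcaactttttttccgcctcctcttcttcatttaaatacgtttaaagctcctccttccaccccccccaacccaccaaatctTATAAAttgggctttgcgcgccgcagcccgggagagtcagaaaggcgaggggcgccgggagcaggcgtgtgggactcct
Dusp1, chr17:26508423-26508722, minus strand: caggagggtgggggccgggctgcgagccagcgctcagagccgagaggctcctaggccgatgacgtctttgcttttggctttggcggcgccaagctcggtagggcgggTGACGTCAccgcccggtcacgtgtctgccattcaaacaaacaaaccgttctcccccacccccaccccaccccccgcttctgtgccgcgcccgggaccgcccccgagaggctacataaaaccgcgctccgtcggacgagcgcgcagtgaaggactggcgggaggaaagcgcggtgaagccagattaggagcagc
Sertad1, chr7:27486703-27487002, plus strand: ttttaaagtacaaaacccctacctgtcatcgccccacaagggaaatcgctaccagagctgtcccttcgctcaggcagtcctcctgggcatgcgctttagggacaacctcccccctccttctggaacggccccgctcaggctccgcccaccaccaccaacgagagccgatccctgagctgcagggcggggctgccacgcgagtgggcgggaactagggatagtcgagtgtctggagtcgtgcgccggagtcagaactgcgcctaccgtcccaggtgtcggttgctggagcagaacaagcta
Mafg, chr11:120633498-120633797, minus strand: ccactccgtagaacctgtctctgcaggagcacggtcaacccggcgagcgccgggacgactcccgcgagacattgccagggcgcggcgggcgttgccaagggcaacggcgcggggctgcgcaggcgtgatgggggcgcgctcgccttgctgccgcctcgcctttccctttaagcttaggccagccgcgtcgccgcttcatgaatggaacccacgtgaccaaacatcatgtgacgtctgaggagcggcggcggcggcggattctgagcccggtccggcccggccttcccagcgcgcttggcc

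The TATA box (TATAAA, searched on both strands) began 33 bases before the start in Fos and 29 before it in Zfp36l1. It was found in 6 of 44 members (13.6%), against 7.63% of the 2529 genes of the tables with an entry and 15.7% of all 27025 genes. The 11 members without an entry could not be searched for any motif. They are Bhlhe40, Cyr61, Dusp4, Egr1, Id1, Ier2, Klf10, Myc, Nfkbiz, Trib1 and Zfp36l2. Full matches were counted anywhere in the window, so partial sites and sites outside it were not counted. A gene without a match may therefore still hold such an element. The Junb match began at the start itself and the Tob1 match 47 bases before it. In Nr4a2 it began 164 bases before the start, on the opposite strand. The CArG box was in 2 of 44 members (4.55%), against 1.27% of genes of the tables and 1.81% of all genes, and Srf held 2 copies, 82 and 62 bases before its start. The cyclic AMP response element TGACGTCA was in Dusp1 only among the 44 members (2.27%), 143 bases before the start, against 5.77% of genes of the tables and 2.03% of all genes. The AP-1 site TGANTCA was in 2 members, Klf9 and Zfp36l1 (4.55%), against 5.10% of genes of the tables and 8.97% of all genes. In Srf a TATA box match on the opposite strand lay 38 bases before the start, apart from both CArG boxes. Of the 9 members with any of these motifs, 8 could be compared at the TSS and Srf was listed at 0. Of the 8, 6 were higher (Fos, Junb, Nr4a2, Zfp36l1, Dusp1 and Klf9), Zfp36 was lower and Tob1 lay in between, against 71.2% of all genes higher and 5.6% lower. The median GC content of the windows was 64.7% for the members and 61.7% for genes of the tables.

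The AP-1 genes encode the Fos and Jun proteins, which pair through leucine zippers, and 5 were listed. At the TSS 3 of 5 were higher by at least 1.5-fold and 0 lower, against 71.2% of all genes higher and 5.6% lower. The TES ratio was higher in 4 and lower in 0, against 66.7% of all genes higher and 7.13% lower. Fos had a TSS ratio of 0.0473 in Carm1 KO cells and 0.0116 in control cells (log2 change 2.03), the largest in this group. Its TES ratio was 1.16 in Carm1 KO cells and 0.826 in control cells (0.49), short of the threshold, so the difference was larger at the start of the gene than at its end. Fosb had TSS ratios of 0.132 in Carm1 KO and 0.0496 in control cells (1.41) and TES ratios of 2.03 in Carm1 KO and 0.856 in control cells (1.25). Junb had a TSS ratio of 0.0787 in Carm1 KO cells and 0.0288 in control cells (1.45). At its TES the ratio was 0.812 in Carm1 KO and 0.474 in control cells (0.78), among the lowest levels of all members. Jun and Fosl2, whose products are partners in the same dimers, differed little at the TSS, with log2 changes of 0.56 and -0.16. At the TES Jun had 1.21 in Carm1 KO and 0.683 in control cells (0.82). Fosl2 had 6.41 in Carm1 KO and 3.54 in control cells (0.85), and with 21.4 kb it is the longest of the AP-1 genes listed.

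Egr1, a zinc finger factor that serum and ERK signalling induce, was the single EGR gene listed. It had a TSS ratio of 0.180 in Carm1 KO cells and 0.0981 in control cells (0.87) and a TES ratio of 1.42 in Carm1 KO cells and 0.736 in control cells (0.95). It was thus higher at both ends by similar factors. The orphan nuclear receptor genes Nr4a1 and Nr4a2 were higher at the TSS by more than the median gene. Nr4a1 had 0.208 in Carm1 KO and 0.0687 in control cells (1.60), and Nr4a2 had 0.323 in Carm1 KO and 0.0704 in control cells (2.20). At the TES Nr4a1 had 1.76 in Carm1 KO and 1.12 in control cells (0.65), and Nr4a2 had 2.24 in Carm1 KO and 1.80 in control cells (0.31). Both changed more at the start than at the end, as did 63.4% of all genes.

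The Krüppel-like factor genes encode zinc finger proteins that bind GC-rich promoters, and they did not move together. Of 6 listed, 5 could be compared at the TSS: 1 was higher, 1 lower and 3 in between, with a median log2 change of -0.06, where 71.2% of all genes were higher and 5.6% lower. Klf9, a glucocorticoid-induced gene, had a TSS ratio of 0.174 in Carm1 KO cells and 0.0373 in control cells (2.22). Klf10, a TGF-beta-induced gene, had 0.0253 in Carm1 KO cells and 0.0579 in control cells (-1.19). At the TES these genes changed places: Klf9 had 2.16 in Carm1 KO and 3.26 in control cells (-0.59, or -0.57 and under the threshold with a pseudocount of 0.1), and Klf10 had 2.83 in Carm1 KO and 0.991 in control cells (1.51). Klf11, the nearest relative of Klf10 in this set, had nearly the same TSS ratio in Carm1 KO (0.105) and control cells (0.0982), and a TES ratio of 4.25 in Carm1 KO and 1.34 in control cells (1.66). Klf6 and Klf7 had TSS log2 changes of -0.06 and -0.16, the same pattern of near-equal starts. At the TES Klf6 had a log2 change of 0.91 and Klf7 of 0.24. Klf13 was listed at 0 at the TSS in Carm1 KO cells and at 0.0375 in control cells, and its TES ratios of 6.82 in Carm1 KO and 6.31 in control cells were the highest of the family.

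Among the basic leucine zipper genes outside AP-1, the small Maf gene Mafg and the CREB relative Atf1 had the largest TSS changes of all members. Mafg had 0.380 in Carm1 KO cells and 0.0143 in control cells (4.74), and the annotated ends of Pycr1 and Gm17586 lie within 1 kb of the outer start of its RefSeq gene body, though not of the inner start shown above. The part of these neighbours in the ratio was not tested. Atf1 had 0.348 in Carm1 KO cells and 0.0332 in control cells (3.39). At the TES the differences were smaller, 0.77 on the log2 scale for Mafg and 0.55 for Atf1. Mafk, the other small Maf gene listed, was higher by 0.73 at the TSS and 1.17 at the TES, though the TSS value was 0.581 and just under the threshold with a pseudocount of 0.01. The stress-response factor genes Atf3, Atf4 and Atf5 were also higher: Atf4 had a TSS ratio of 0.661 in Carm1 KO and 0.176 in control cells (1.90). Atf5 changed alike at both ends, by 1.55 at the TSS and 1.49 at the TES, and Atf3 by 1.03 at the TSS and 1.17 at the TES. Atf7, with 99.5 kb the longest member, ran the other way, with 0.0959 in Carm1 KO and 0.153 in control cells at the TSS (-0.67). This Carm1 KO value was shared by 17 other genes. Its TES ratio was 8.98 in Carm1 KO and 11.5 in control cells (-0.36).

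Myc, the growth regulator, had low TSS ratios of 0.0214 in Carm1 KO cells and 0.0155 in control cells (0.47), short of the threshold. Its TES ratios were 1.30 in Carm1 KO and 0.817 in control cells (0.67). Srf, which encodes the factor that binds CArG boxes, was listed at 0 at the TSS in both and had TES ratios of 3.02 in Carm1 KO and 1.20 in control cells (1.34). Csrnp2, a nuclear factor gene, had 0.104 in Carm1 KO and 0.143 in control cells at the TSS (-0.46) and 5.62 in Carm1 KO and 2.71 in control cells at the TES (1.05). In each of these genes the TES change passed the threshold, and the TSS change did not or could not be computed. The ID genes encode helix-loop-helix proteins that block DNA binding of their partners and respond to BMP signals. Id1 had a TSS ratio of 0.134 in Carm1 KO and 0.0497 in control cells (1.43), and this Carm1 KO value was shared exactly by 25 other genes, so it is coarse. Id2 was higher at the TSS by 1.18, and Id3 had a log2 change of 0.57. At the TES Id2 and Id3 were higher by 0.84 and 0.80, whereas Id1 had 0.945 in Carm1 KO and 0.802 in control cells (0.24).

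The clock genes listed encode repressors of the circadian feedback loop: Per1, Cry1, Cry2, Bhlhe40 and Bhlhe41. At the TSS 4 of 5 were higher and 0 lower, and at the TES 4 were higher and 1 was lower, where all genes gave 71.2% higher and 5.6% lower at the TSS and 66.7% higher and 7.13% lower at the TES. Bhlhe40 was higher at both ends, with 0.224 in Carm1 KO and 0.0487 in control cells at the TSS (2.20) and 1.74 in Carm1 KO and 0.552 in control cells at the TES (1.65). Per1 had 0.263 in Carm1 KO and 0.132 in control cells at the TSS (0.99) and 2.05 in Carm1 KO and 1.17 in control cells at the TES (0.81). Bhlhe41 was higher by 0.60 at the TSS (0.57, under the threshold, with a pseudocount of 0.01) and by 1.06 at the TES. The cryptochrome genes parted. Cry1 had a TSS ratio of 0.0839 in Carm1 KO and 0.0336 in control cells (1.32) but a TES ratio of 2.68 in Carm1 KO and 18.0 in control cells (-2.74), the largest decrease of any member. Its Carm1 KO values are coarse: 19 other genes shared the TSS value and 23 the TES value. Cry2 had 0.121 in Carm1 KO and 0.107 in control cells at the TSS (0.18) and 5.97 in Carm1 KO and 2.60 in control cells at the TES (1.20). Of the other clock genes, the nuclear receptor genes Nr1d1 and Nr1d2 and the kinase gene Csnk1d were listed. At the TES 3 of 3 were higher, led by Nr1d1 (1.84), and at the TSS Csnk1d (3.62) and Nr1d2 (2.81) were.

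The IER genes are short genes of the first transcriptional wave. At the TSS 0 of 3 were higher and 1 was lower, against 71.2% higher and 5.6% lower over all genes. Ier3, an apoptosis regulator, had the highest control TSS ratio of all members, at 0.451 in Carm1 KO and 0.518 in control cells (-0.20). Its TES ratio was 0.720 in Carm1 KO and 0.483 in control cells (0.58), at 1.49-fold just under the threshold. Ier2 differed little at either end, with 0.198 in Carm1 KO and 0.150 in control cells at the TSS (0.40) and 0.783 in Carm1 KO and 0.619 in control cells at the TES (0.34). Ier5 had 0.00947 in Carm1 KO and 0.0183 in control cells at the TSS (-0.95, or -0.54 and under the threshold with a pseudocount of 0.01) and 1.25 in Carm1 KO and 0.741 in control cells at the TES (0.75). This gave Ier5 opposite directions at start and end, as for Klf10.

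The dual-specificity phosphatases remove phosphate from threonine and tyrosine, and Dusp1, Dusp2, Dusp4, Dusp6 and Dusp10 act on MAP kinases as feedback inhibitors. Of the 7 DUSP genes listed, 5 were higher and 1 lower at the TSS, and 6 were higher and 1 lower at the TES, where all genes gave 71.2% higher and 5.6% lower for the start and 66.7% higher and 7.13% lower for the end. Dusp6, the ERK-specific cytoplasmic phosphatase, had 0.0901 in Carm1 KO and 0.0341 in control cells at the TSS (1.40) and 1.67 in Carm1 KO and 0.824 in control cells at the TES (1.02). Dusp4, its nuclear counterpart, had 0.221 in Carm1 KO and 0.139 in control cells at the TSS (0.66) and 3.27 in Carm1 KO and 1.33 in control cells at the TES (1.30). Dusp1, the classic immediate early phosphatase, was higher by 0.75 at the TSS (0.57, under the threshold, with a pseudocount of 0.01) and by 0.78 at the TES. These 3 genes were higher at both ends, as were 49.2% of all genes, and the TSS changes of Dusp1 (-0.42) and Dusp4 (-0.50) turned negative once the median of all genes was subtracted. Dusp3 had TSS ratios of 0.107 in Carm1 KO and 0.0215 in control cells (2.32), and Dusp18, an atypical member, was higher by 1.18 at the TSS and 1.23 at the TES. Dusp2 had 0.0258 in Carm1 KO and 0.0640 in control cells at the TSS (-1.31) and 0.999 in Carm1 KO and 0.610 in control cells at the TES (0.71). Dusp10, which acts on JNK and p38 and spans 41.3 kb, had 0.179 in Carm1 KO and 0.131 in control cells at the TSS (0.45) and 2.53 in Carm1 KO and 4.30 in control cells at the TES (-0.76). The longest DUSP gene was thus the one lower at its end.

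The other signalling inhibitors were all higher at the TSS, 5 of 5, and 3 of 5 were higher at the TES, where the shares over all genes were 71.2% for the TSS and 66.7% for the TES. Rgs2, which turns off G protein signalling, had 0.0258 in Carm1 KO and 0.00306 in control cells at the TSS (3.08, or 1.46 with a pseudocount of 0.01). Its TES ratios of 1.79 in Carm1 KO and 0.294 in control cells (2.61) gave the largest TES change of the members. The control ratios of Rgs2 were the lowest above 0 of all members at both ends, and its TSS ratio in Carm1 KO cells was the same value as that of Dusp2. Nfkbiz, an inducible nuclear NF-kappaB cofactor, had 0.398 in Carm1 KO and 0.0725 in control cells at the TSS (2.46) and 2.87 in Carm1 KO and 1.21 in control cells at the TES (1.25). The pseudokinase gene Trib1 was higher by 1.22 at the TSS and 1.34 at the TES. Spry2, an inhibitor of receptor tyrosine kinase signalling to ERK, had 0.296 in Carm1 KO and 0.111 in control cells at the TSS (1.41) and 1.17 in Carm1 KO and 0.829 in control cells at the TES (0.50). Socs4, of the cytokine signalling suppressors, had 0.105 in Carm1 KO and 0.0421 in control cells at the TSS (1.31) and 2.22 in Carm1 KO and 2.67 in control cells at the TES (-0.27). Another gene's annotated end lies within 1 kb of the start of Nfkbiz (Nxpe3) and Socs4 (Gm49150), and its part was not tested.

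The ZFP36 proteins bind AU-rich elements in messenger RNA and recruit the deadenylation machinery, and TOB proteins also act through it. At the TSS 2 of 5 were higher and 1 lower, and at the TES 4 were higher and 0 lower, beside 71.2% higher and 5.6% lower at the TSS and 66.7% higher and 7.13% lower at the TES over all genes. Zfp36l1 had 0.214 in Carm1 KO and 0.0355 in control cells at the TSS (2.59), with the annotated end of Gm26669 within 1 kb of its start. Zfp36 had 0.0442 in Carm1 KO and 0.0791 in control cells at the TSS (-0.84), and its control value was shared by 14 other genes. Zfp36l2 stood between these relatives, with high and near-equal TSS ratios of 0.387 in Carm1 KO and 0.370 in control cells (0.06). At the TES the log2 changes were 0.88 for Zfp36l1, 0.71 for Zfp36l2 and 0.56 for Zfp36, in the same order as at the start. Tob1 had a TSS ratio of 0.00897 in each of the Carm1 KO and control libraries and TES ratios of 1.95 in Carm1 KO and 0.944 in control cells (1.05), and Tob2 was higher by 0.80 at the TSS and 0.99 at the TES. Of 8 decay partners outside the members, 4 were higher at the TSS and 7 at the TES, with 0 lower at either end and medians of 0.41 and 1.20. Among them the TOB relatives Btg1 and Btg2 had TSS log2 changes of 0.12 and -0.02 and were higher at the TES by 0.98 and 1.14, as Tob1 was.

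Pim3, a serine/threonine kinase gene, had the highest TSS ratio of all members in Carm1 KO cells, with 0.883 there and 0.320 in control cells (1.47). At the TES it had 1.74 in Carm1 KO and 0.850 in control cells (1.03). Sertad1, a cofactor of E2F and cyclin-dependent kinase signalling, had the lowest change at the TSS of any member, with 0.0150 in Carm1 KO and 0.0399 in control cells (-1.41), and was higher at the TES, with 2.06 in Carm1 KO and 0.751 in control cells (1.45). Cyr61, a secreted matrix protein gene and YAP target, had TSS ratios of 0.112 in Carm1 KO and 0.0959 in control cells (0.22). Of the signalling genes upstream of these responses, 10 of 47 symbols were listed. At the TSS 6 of 9 compared were higher and 0 lower, against 71.2% of all genes higher and 5.6% lower. Their median was 2.31, against 1.17 for all genes. Among those higher were the YAP-related coactivator gene Wwtr1 (3.04) and the adaptor gene Shc1 (2.74). These genes parted at the TES, with log2 changes of -1.64 for Wwtr1 and 1.16 for Shc1. At the TES 4 of 10 were higher and 2 lower, against 66.7% of all genes higher and 7.13% lower. Their median was 0.50, against 0.85 for all genes, and Crem (2.11) had the largest change.

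The 51 members compared at both ends were sorted by their calls at start and end. A total of 23 (45.1%) were higher at both, against 49.2% of 2775 genes, and 0 were lower at both, against 0.613%. Sertad1, Dusp2, Klf10 and Ier5 were lower at the TSS and higher at the TES, 4 of 51 (7.84%), against 3.42% of all genes. Cry1 and Klf9 were higher at the TSS and lower at the TES (3.92%), against 4.58% of all genes. With the pseudocounts the TSS call of Ier5 ended, and the other 3 genes made up 3 of 53 members (5.66%), against 5.26% of all 3025 genes. The TES call of Klf9 also ended. Of the 6 members lower at the TSS, 1 (Atf7) was left when genes of low mean ratio were left out. When ratios shared by 4 or more other genes were left out, 3 remained (Sertad1, Dusp2 and Ier5), without Atf7. Both TSS ratios of Sertad1, Dusp2, Klf10 and Ier5 lay under 0.0701, the cut on the mean ratio. The low-value filter thus removed all 4 genes that were lower at the TSS and higher at the TES. The shares over all genes with these filters were not computed.

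**Figure D3:**
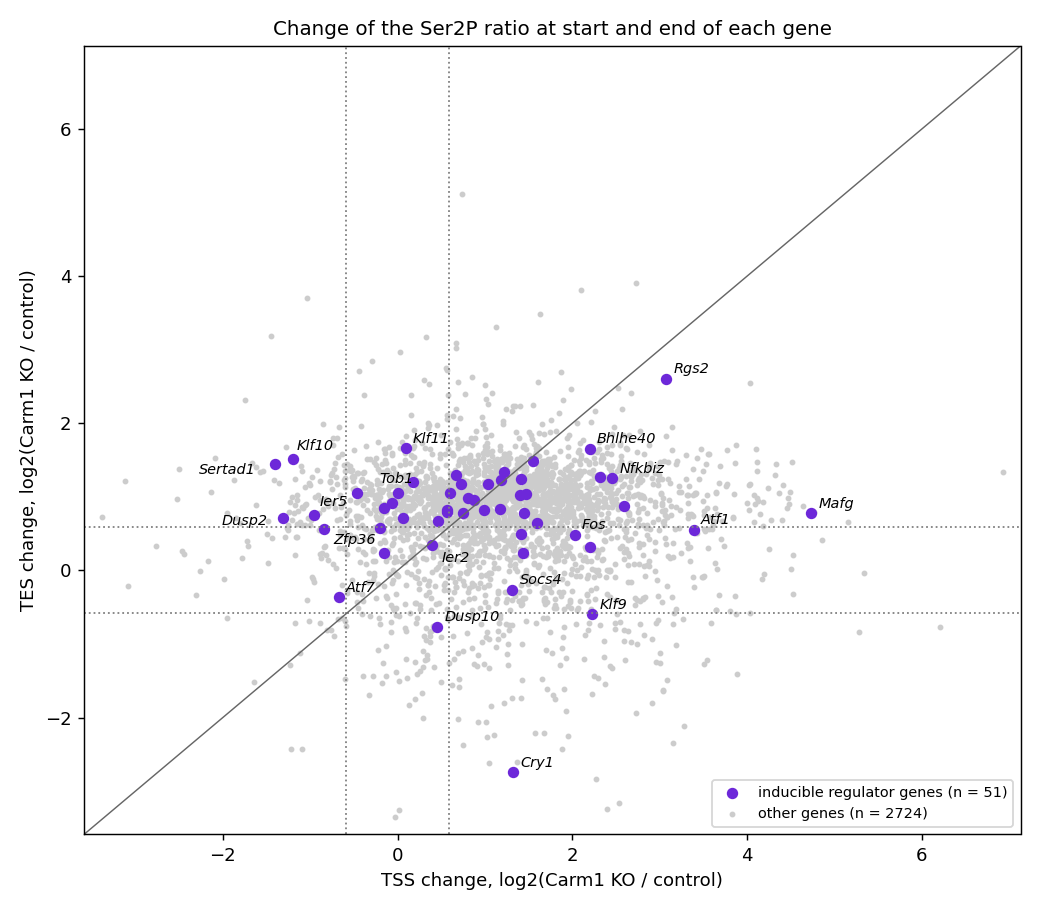
TSS change (x axis) and TES change (y axis), each log2(Carm1 KO / control), of the 51 members compared at both ends (purple) and of the other genes (grey); dotted lines mark 1.5-fold and the diagonal equal change. Sertad1, Klf10, Dusp2 and Ier5 lie at the upper left, Cry1 at the bottom and Mafg at the far right, with Rgs2 high on both axes.

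Dividing each gene's TES ratio by its TSS ratio within a library removes any factor common to both tables of that library. The median of this end-over-start ratio was 18.5 in Carm1 KO and 18.9 in control cells for the 51 members, and 15.7 in Carm1 KO and 19.5 in control cells for all 2775 genes. It was lower in Carm1 KO cells for 24 of 51 members (47.1%) and 63.4% of all genes. In the other 27 members (52.9%) and 36.6% of all genes it was higher, which restates a larger log2 change at the end than at the start. Whether these shares differ beyond a spread between cultures could not be tested with 1 library per group. Among the members, Cry1 had the largest control value, 32.0 in Carm1 KO and 536 in control cells. Mafg had 5.58 in Carm1 KO and 86.9 in control cells, and Klf9 12.4 in Carm1 KO and 87.4 in control cells. In these genes, and in Atf1 with 18.9 in Carm1 KO and 135 in control cells, the gradient was flatter in Carm1 KO cells. In others it was steeper: Sertad1 had 137 in Carm1 KO and 18.8 in control cells, Klf10 112 in Carm1 KO and 17.1 in control cells, and Ier5 132 in Carm1 KO and 40.5 in control cells. Tob1 had 217 in Carm1 KO cells, the highest value there, and 105 in control cells. The large values rest on small TSS divisors. In Carm1 KO cells the TSS ratios of Sertad1, Klf10, Ier5 and Tob1 ran from 0.00897 to 0.0253, under the lower quartile of all genes (0.0837). The control TSS ratios of Cry1, Mafg, Klf9 and Atf1 also lay under the lower quartile, there 0.0422. Ier3 had nearly no gradient, with 1.60 in Carm1 KO and 0.932 in control cells. It was the single member whose control ratio was higher at the start than at the end.

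**Figure D4:**
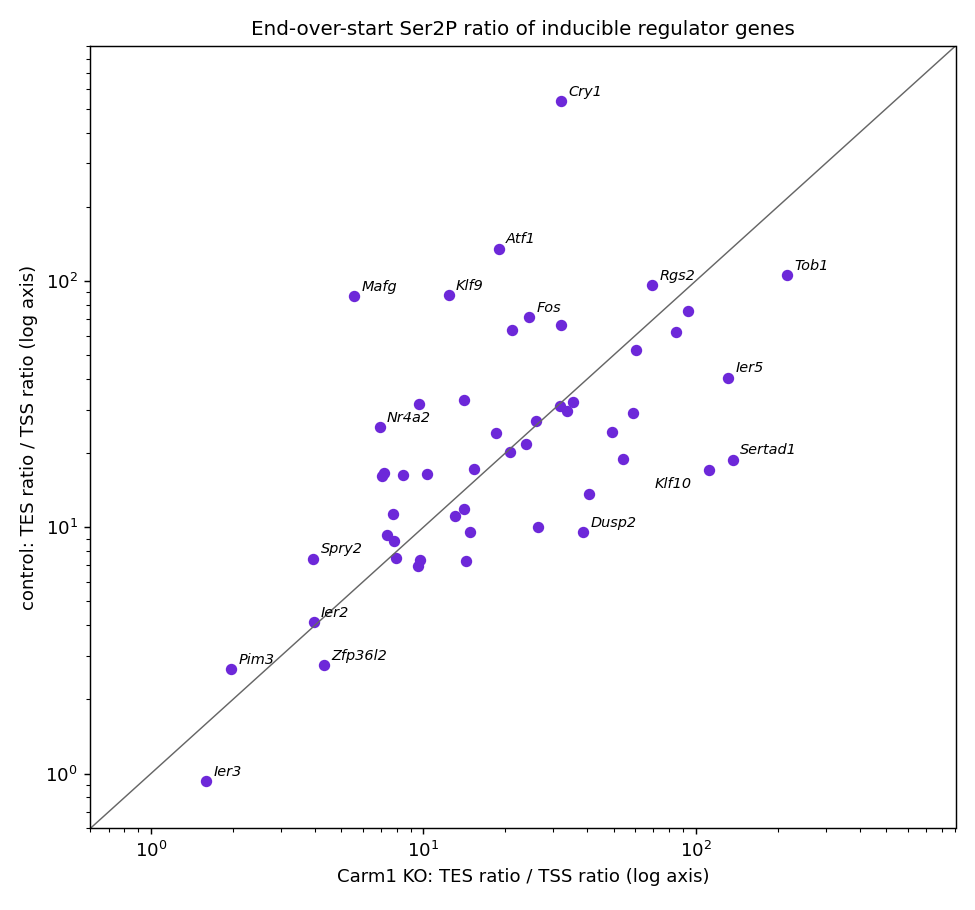
End-over-start Ser2P ratio (TES ratio divided by TSS ratio, log axes) of the 51 members in Carm1 KO cells (x axis) and control cells (y axis); points above the diagonal had the larger value in control cells. Cry1, Atf1, Mafg and Klf9 lie above it and Sertad1, Klf10, Ier5 and Dusp2 below it, with Ier3 at the lower left.

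The members, picked by symbol alone, are mostly short: their median length at the TES was 7.42 kb, against 17.5 kb for all listed genes, by RefSeq annotation. These lengths run from the outer RefSeq start, which for Nr4a1 lies 12.94 kb before the start of its promoter window's transcript. In genes under 10 kb the median TES ratio was 1.64 in Carm1 KO and 0.817 in control cells over 31 members, and 1.92 in Carm1 KO and 0.979 in control cells over all 1007 such genes. In genes of 10 kb or longer it was 3.15 in Carm1 KO and 1.85 in control cells over 22 members, and 3.99 in Carm1 KO and 2.53 in control cells over all 2017 such genes. The low TES ratios of the members thus went with their short length, and within each length class their median lay under that of all genes. The control TES ratio was under the median of its length class in 25 of 31 short members and in 12 of 22 members of 10 kb or longer.

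The median TES change of the members was alike in both classes, 0.84 under 10 kb and 0.83 at 10 kb or longer. For all genes it was 0.93 and 0.76. In 10 groups of all genes by length, the median was 0.84 in the shortest, rose to 1.02 in the middle groups and fell to -0.11 in the longest. All 31 short members had positive TES changes, from 0.24 at Id1 to 2.61 at Rgs2, and only 3.29% of all genes under 10 kb had negative ones. Of these members, 25 (80.6%) were higher by at least 1.5-fold, against 82.4% of all genes under 10 kb. The 5 members with negative TES changes, Cry1, Dusp10, Klf9, Atf7 and Socs4, were all 19.2 kb or longer. Among 5 members of 40 kb or longer (Atf7, Klf7, Cry1, Klf13 and Dusp10), 3 had negative changes and 0 were higher by the threshold, and 43.2% of all 694 genes of that length had negative changes. Cry1, at 53.4 kb, lay far below the median of 0.24 for genes of like length (the same of 10 groups by length), and Klf9, at 26.9 kb, below the 0.87 of its own group. Dusp10 lay below a median of 0.66, whereas Klf7 (0.24) lay above the -0.11 of the longest group. Counted over all 53 members, 23 lay above the median of genes of like length and 30 below.

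**Figure D5:**
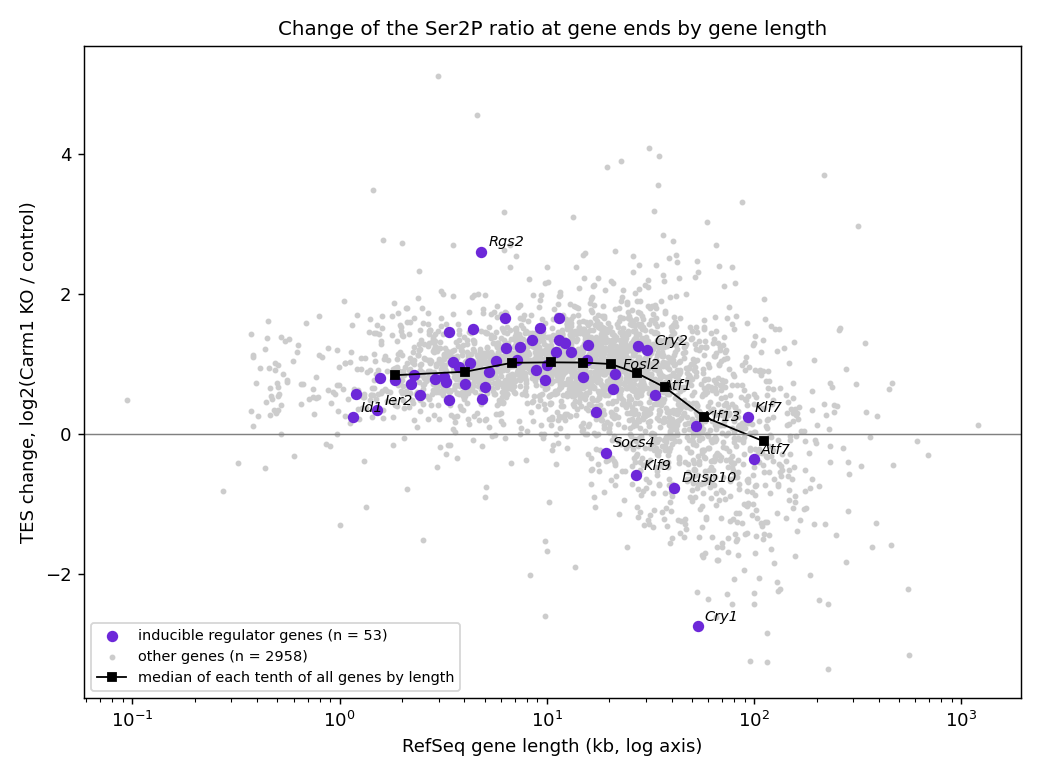
TES change, log2(Carm1 KO / control), against RefSeq gene length (kb, log axis) for the 53 members (purple) and other genes (grey); black squares join the medians of 10 groups of equal number by length. Short members cluster around the median line, Rgs2 lies above it, and Cry1, Dusp10, Klf9 and Socs4 lie below it.

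Values at the TSS were coarse. Among ratios above 0, identical values in some other gene were found for 21 of the 55 members in Carm1 KO cells, where 2 were listed at 0. In control cells they were found for 16, where 1 was listed at 0. The shares over all genes above 0 were larger, 54.8% in Carm1 KO and 39.3% in control cells. At the TES this held for 8 of 53 members in Carm1 KO and 5 of 53 in control cells, against larger shares of all genes, 24.9% in Carm1 KO and 22.3% in control cells. Besides Id1, Cry1 and Atf7, the Carm1 KO value at the TSS was shared by 17 other genes for Bhlhe40, 12 for Dusp10 and 9 for Dusp3. At the TES that of Nr4a2 was shared by 11. The counting of strand is not given in the sources used here, so signal of a neighbour or antisense transcript cannot be told apart from that of the 6 members (Mafg, Nfkbiz, Zfp36l1, Socs4, Tob2 and Bhlhe41) with another gene's end near the start. Without these 6 the median TSS change of the members was 0.75.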

How the data were processed

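Native elongating transcript sequencing libraries were made from Carm1 KO and control B16F10 cells, with cells pooled before immunoprecipitation, per the labels' protocols. The authors deposited 2 tables, for the TSS and the TES, with a value per gene for Carm1 KO and for control cells. The file headers call it a Ser2 fraction. It exceeds 1, so it was treated as a linear ratio of the Ser2P signal to an unnamed signal, per the file headers. The deposited difference column equals Carm1 KO minus control within 1e-09 in all 3112 TSS and 3030 TES genes and was set aside. Columns were assigned to groups by name. The submitters' processing notes name cutadapt 1.18, TopHat2 2.1.1 and the build GRCm38, with no settings. The sources used here give no window, scaling or gene selection. Read depth is unknown, so no counting interval was computed.

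The change was log2(Carm1 KO / control) of the deposited ratios with no pseudocount, for genes above 0 in both, and calls were made at 1.5-fold. Nothing else was filtered. Every member found by the symbol rule could be named, and some genes of the pathway lists are not reported here. The members and lists were chosen with earlier results of these data known. Lengths and positions came from RefSeq on GRCm38.p6, with a length for 99.8% of compared genes, and neighbouring gene ends and strands from GENCODE M21 on GRCm38. A check on control ratios multiplied by known folds, with no noise, returned those folds by construction. It therefore says nothing on the precision of the values. Python 3.11.15, pandas 2.3.3, numpy 2.4.6 and matplotlib 3.10.9 were used. Alternatives were a pseudocount, a filter on low values, centring, a common gene set, removal of coarse values, a 2-fold threshold, and length and neighbour corrections.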

Additional observations from a re-analysis of the deposited data

How the results depend on the processing

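No paired analysis was possible because each group has 1 pooled library, and no replicate could be left out. The median TSS change of the members, 0.87 on the log2 scale, was 0.71 with a pseudocount of 0.01, 0.93 with low values left out, 0.84 with coarse values left out and 0.75 without members near another gene's end. It turned to -0.30 when the median of all genes was subtracted and to -0.17 when that of genes of like length was. The median TES change of 0.84 was 0.76 with a pseudocount of 0.1, 0.99 with low values left out and 0.85 with coarse values left out, and turned to -0.014 and -0.044 on subtracting the medians of all genes and of genes of like length. Subtraction centres all genes on 0 by construction.

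At the TSS, 6 members were lower as deposited, 1 with low values left out (36 members kept), 3 with coarse values left out and 3 at 2-fold. Centred on the median of all genes, 11 were higher and 21 lower. At the TES, 38 were higher as deposited, 16 with low values left out (25 members kept) and 21 at 2-fold, where 1 was lower. With low or coarse values left out and at 2-fold, the shares over all genes were not computed. These counts therefore show only how the calls of the members depend on the setting. Centred, 6 were higher and 8 lower. The median end-over-start ratio was 18.7 in Carm1 KO and 18.8 in control cells with the pseudocounts, an alternative chosen after seeing the data.

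After centring, called changes turned negative at the TSS in 8 members: Atf3 (-0.14), Bhlhe41 (-0.57), Dusp1 (-0.42), Dusp4 (-0.50), Egr1 (-0.30), Mafk (-0.44), Per1 (-0.17) and Tob2 (-0.37). At the TES they did in 12: Dusp1 (-0.067), Dusp2 (-0.14), Id2 (-0.014), Id3 (-0.054), Ier5 (-0.10), Jun (-0.030), Junb (-0.074), Mafg (-0.076), Myc (-0.18), Nr4a1 (-0.20), Per1 (-0.036) and Zfp36l2 (-0.14). With the pseudocounts no called member changed sign, but the TSS calls of Bhlhe41 (0.57), Dusp1 (0.57), Ier5 (-0.54) and Mafk (0.581) and the TES call of Klf9 (-0.57) ended, and Rgs2 at the TSS was 1.46. Unknown depth limits single genes, the low TSS values most.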
